A study of Mus musculus with 9 samples.

Results

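The genes described are 8 components of the dystrophin and sarcoglycan complex of the muscle membrane: Dmd, Utrn, Dag1, Sgca, Sgcb, Sgcd, Sntb1 and Dtna. They were taken by symbol from a table of 24062 gene symbols. All 8 were listed, and all 8 were among the 12989 genes that passed the filter on low counts. RNA was sequenced from whole gastrocnemius, a muscle of the calf; the mice were 3 months old and of 129Sve/C57BL/6 mix background. The 9 libraries were 3 from hetX753 mice, 3 from hetL1002P mice and 3 from wild-type (WT) mice. Both tested genotypes carry a germline MVA allele of BubR1, the spindle checkpoint protein encoded by Bub1b, beside a normal copy, and MVA stands for mosaic variegated aneuploidy, a chromosome segregation disorder. The labels name no sex, litter or agent, and they do not state whether a genotype's libraries are from separate animals, so each p-value reflects only the scatter among these libraries, which could be technical.

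The complex ties the actin cytoskeleton inside a muscle fibre to laminin outside it. Dystrophin (Dmd) binds actin and the membrane protein dystroglycan (Dag1), whose outer part carries the sugars that laminin binds, while the sarcoglycans stabilise the assembly in the membrane and the dystrobrevins and syntrophins attach to it on the inner side. Loss of dystrophin causes Duchenne muscular dystrophy, loss of a sarcoglycan causes forms of limb-girdle muscular dystrophy, and utrophin (Utrn), a close relative of dystrophin, is enriched at the neuromuscular junction.

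Library totals ran from 19768149 to 33977252 counts. Bub1b had 8, 8 and 5 counts in the hetX753 libraries, 10, 9 and 2 in the hetL1002P libraries and 21, 11 and 16 in the WT libraries. Every carrier library lay below every WT library in counts scaled to the library total (CPM), and the log2 fold change was -1.21 against WT in both carriers, with an adjusted p of 0.177 in hetX753 and 0.579 in hetL1002P (edgeR quasi-likelihood test, Benjamini-Hochberg over all genes tested). The 8 muscle fibre markers summed to 167400 to 184500 CPM in hetX753, 180800 to 202400 CPM in hetL1002P and 204800 to 227900 CPM in WT, and none was at 0. Their fold changes against WT had both signs, and none passed. Above 0 were 3 of 8 in hetX753 (Myh4, Myh1 and Actn3) and 2 of 8 in hetL1002P (Myh4 and Myh1). hetL1002P 3 and WT 3 stood apart from the other libraries, at -32.5 for hetL1002P 3 and -47.5 for WT 3 on a first principal component that held 39.7% of the variance, where the other 7 lay between -9.52 and 28.8. Fold changes of the 8 genes against WT are therefore given with and without these 2 libraries.

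Levels of different genes were compared per length, as CPM divided by the length of the gene's longest annotated transcript in kilobases (RPKM), averaged over the 9 libraries. Sgca, which encodes the alpha-sarcoglycan of striated muscle, stood highest at 139 RPKM. Dag1 followed at 39.4 RPKM and Sgcb, beta-sarcoglycan, at 25.9 RPKM. Dtna, alpha-dystrobrevin, had 13.1 RPKM and Dmd 4.39 RPKM. The lowest levels were those of Sgcd, delta-sarcoglycan, at 1.70 RPKM, Utrn, between 0.668 and 2.15 RPKM by library, and Sntb1, beta-1-syntrophin, at 0.637 RPKM. In the neighbouring pairs of this order, Dag1 exceeded Sgcb in 8 of 9 libraries and Sgcd exceeded Utrn in 8 of 9, so neither pair was separated in all libraries, whereas the other neighbours kept their order in 9 of 9. With the length of all annotated exons in place of the longest transcript, Utrn at 1.02 RPKM came above Sgcd at 0.915 RPKM and Dtna stood at 4.86 RPKM. The counts behind these levels ran from 4563 to 7521 per library for Sgca, but from 80 to 332 for Sgcd and from 17 to 169 for Sntb1, so Sntb1 was the least precisely measured.

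**Figure D1:**
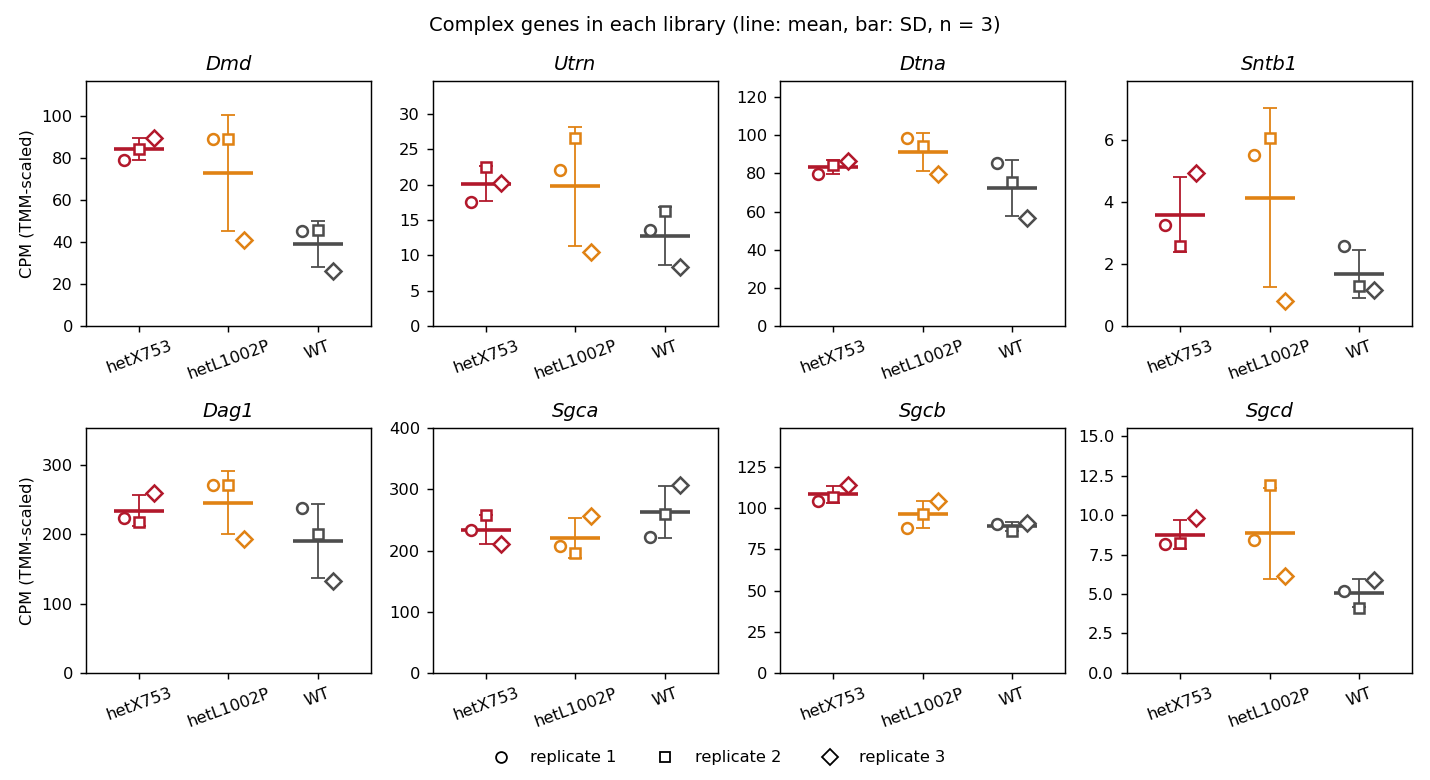
Level of each of the 8 genes in every library, in CPM on a linear axis from 0, for hetX753, hetL1002P and WT. Points are the 3 libraries of a genotype, and the line with its bar is their mean and SD. Dmd lay between 79.2 and 89.8 CPM in hetX753 and between 26.2 and 45.6 CPM in WT, with hetL1002P 3 at 41.1 CPM among the WT values.

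Promoter sequence is shown for 4 of the genes. Dmd, Utrn and Sgcd are among those whose hetX753 libraries all lay above the WT libraries, and Sgca is the only one of the 8 with a negative fold change against WT in both carriers, a sign that turned in hetX753 once the length and GC trend described further on was removed. Each sequence runs 5′ to 3′ on the gene's strand, from 250 bases before to 50 bases after a RefSeq start site (GRCm38.p6). Capitals mark matches on either strand, overlapping ones included, to the E-box CANNTG, bound by myogenic factors among others, to the M-CAT motif CATTCC, to the GC box GGGCGG, and to the CArG box and MEF2 site.
Dmd, chrX:82948620-82948919, plus strand: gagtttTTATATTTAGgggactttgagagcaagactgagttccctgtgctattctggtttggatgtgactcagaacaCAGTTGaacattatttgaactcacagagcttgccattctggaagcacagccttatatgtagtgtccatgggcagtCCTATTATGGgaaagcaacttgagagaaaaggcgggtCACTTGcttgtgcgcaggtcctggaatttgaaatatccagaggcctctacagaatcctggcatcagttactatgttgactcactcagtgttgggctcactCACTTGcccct
Utrn, chr10:12861686-12861985, minus strand: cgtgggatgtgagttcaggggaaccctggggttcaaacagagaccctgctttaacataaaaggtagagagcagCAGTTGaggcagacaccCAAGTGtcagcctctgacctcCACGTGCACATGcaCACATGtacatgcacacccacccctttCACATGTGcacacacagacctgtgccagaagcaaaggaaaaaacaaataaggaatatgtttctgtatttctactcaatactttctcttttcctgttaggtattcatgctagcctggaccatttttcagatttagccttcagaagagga
Sgcd, chr11:47379276-47379575, minus strand: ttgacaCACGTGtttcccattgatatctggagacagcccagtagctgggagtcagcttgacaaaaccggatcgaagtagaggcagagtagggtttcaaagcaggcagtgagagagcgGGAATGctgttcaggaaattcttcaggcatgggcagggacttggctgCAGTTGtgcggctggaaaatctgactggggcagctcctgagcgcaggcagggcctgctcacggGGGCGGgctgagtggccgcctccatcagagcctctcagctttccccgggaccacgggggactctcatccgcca
Sgca, chr11:94976278-94976577, minus strand: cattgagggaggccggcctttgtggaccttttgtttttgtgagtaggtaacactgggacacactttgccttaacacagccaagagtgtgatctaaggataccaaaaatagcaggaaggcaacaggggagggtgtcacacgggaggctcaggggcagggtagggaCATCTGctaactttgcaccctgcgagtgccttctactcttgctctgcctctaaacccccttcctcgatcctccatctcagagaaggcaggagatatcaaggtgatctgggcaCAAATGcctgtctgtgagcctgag
The Dmd window, at the start of full-length dystrophin transcripts, held 3 E-boxes, 1 CArG box and 1 MEF2 site. The CArG box lay at -98 and the MEF2 site at -244, counted from the start site. The Utrn window held 7 E-boxes and none of the other motifs, the Sgcd window 2 E-boxes, 1 M-CAT motif and 1 GC box, and the Sgca window 2 E-boxes. Of the windows not shown, that of Sgcb, whose hetX753 libraries also all lay above WT, held 1 GC box and 0 E-boxes. The window of a further Dmd start, chrX:85048045-85048344, held 3 GC boxes and none of the other motifs. Each Dag1 window held 1 E-box, with 3 or 4 GC boxes. Of 32851 promoters of the same length, 72.3% held an E-box, 14.7% an M-CAT motif, 35.7% a GC box, 1.63% a CArG box and 3.19% a MEF2 site. The matches are descriptions of letters, not of binding. The Utrn and Sgcd starts lie inside the spans of these genes in the GENCODE M21 annotation (chr10:12382188-12869365 and chr11:46896253-47988969), so further starts exist upstream. The RefSeq span of Dmd likewise begins upstream of the window shown, at chrX:82814664. Counts were taken by symbol and do not separate the starts of a gene. The other spans on GRCm38 are chrX:82948870-85206141 for Dmd, chr9:108204634-108263958 for Dag1, chr11:94962791-94976327 for Sgca, chr5:73632749-73647790 for Sgcb and chr15:55636388-55906949 for Sntb1.

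In hetX753 muscle, the mRNAs of dystrophin, utrophin, beta-sarcoglycan and delta-sarcoglycan were higher in every library than in any WT library, but none of the 8 genes passed the test at an adjusted p under 0.05. Dmd stood highest above WT among the 8 in fold change, at 2.17-fold. Of the 8, 4 had all hetX753 libraries above all WT libraries, against 16.7% of all genes tested, and 0 had all below, against 15.8%. The 0 of 8 that passed compare with 66 of 12989 genes, or 0.508%. The fold change was above 0 for 7 of 8, against 50.4% of all genes, and the median log2 fold change was 0.48, against 0.0032 over all genes. At an unadjusted p under 0.05 stood 3 of the 8, against 20.9% of all genes.

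Dmd had 79.2, 84.4 and 89.8 CPM in the hetX753 libraries, against 45.2, 45.6 and 26.2 CPM in the WT libraries. The groups did not overlap, and the lowest hetX753 library was well above the highest WT library. The means were 84.5 ± 5.32 CPM in hetX753 and 39.0 ± 11.1 CPM in WT (SD, n = 3 each), a log2 fold change of 1.11 (SE 0.28, 95% interval 0.49 to 1.74, adjusted p = 0.114, edgeR). Without WT 3 and hetL1002P 3 the log2 fold change was 0.90 and passed (adjusted p = 0.00317, edgeR), as it did without hetL1002P 3 alone (1.11, adjusted p = 0.0144, edgeR), a library that is in neither group compared but shares the estimate of spread. It also passed with DESeq2 (adjusted p = 0.00698) and in an edgeR fit of the hetX753 and WT libraries alone (adjusted p = 0.0291), and the adjusted p over 10 other settings ran from 0.00317 to 0.146. Of the 9 fits that leave out 1 library, Dmd passed only in that without hetL1002P 3, and its adjusted p reached 0.355 (edgeR). Over all genes, 669 passed in that fit, 340 without both libraries, 660 with DESeq2 and 254 in the 2 genotypes alone. With all 9 libraries, 66 did.

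Utrn had 17.6, 22.5 and 20.2 CPM in the hetX753 libraries, against 13.6, 16.3 and 8.27 CPM in the WT libraries. The groups did not overlap, although the lowest hetX753 and highest WT libraries were close. Its log2 fold change was 0.66 (SE 0.32, adjusted p = 0.262, edgeR). Dtna had 79.5, 84.2 and 86.5 CPM in the hetX753 libraries, against 85.7, 75.3 and 56.7 CPM in the WT libraries. WT 1 lay among the hetX753 values, and the log2 fold change was 0.20 (SE 0.15, adjusted p = 0.446, edgeR). Sntb1 had 3.27, 2.57 and 4.94 CPM in the hetX753 libraries, against 2.57, 1.29 and 1.16 CPM in the WT libraries. The groups met at their edges, and at this depth the log2 fold change of 1.05 had an SE of 0.59 (adjusted p = 0.322, edgeR).

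Dag1, the laminin receptor, had 224, 218 and 260 CPM in the hetX753 libraries, against 238, 200 and 132 CPM in the WT libraries. The groups overlapped, with only WT 3 far below the rest, and the log2 fold change was 0.30 (SE 0.21, adjusted p = 0.412, edgeR). Among the sarcoglycans, Sgcd had 8.19, 8.25 and 9.83 CPM in the hetX753 libraries, against 5.21, 4.13 and 5.90 CPM in the WT libraries. The groups did not overlap, and the log2 fold change of 0.78 (SE 0.24, adjusted p = 0.136, edgeR) was the second highest with non-overlapping libraries. Sgcd passed without WT 3 and hetL1002P 3 (0.89, adjusted p = 0.0467, edgeR) and without hetL1002P 3 alone (adjusted p = 0.0424, edgeR). In no other fit that leaves out 1 library did Sgcd pass, and its adjusted p reached 0.407 (edgeR). Sgcb had 104, 107 and 114 CPM in the hetX753 libraries, against 90.2, 86.0 and 90.9 CPM in the WT libraries. The groups did not overlap, and the log2 fold change of 0.29 had the smallest SE of the 8 (0.10, adjusted p = 0.173, edgeR). Sgca had 234, 258 and 211 CPM in the hetX753 libraries, against 223, 260 and 308 CPM in the WT libraries. Its groups overlapped, with a log2 fold change of -0.17 (SE 0.15, adjusted p = 0.527, edgeR).

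Without WT 3 and hetL1002P 3, the log2 fold changes of hetX753 against WT that did not pass were 0.83 for Sntb1, 0.44 for Utrn, 0.30 for Sgcb, 0.096 for Dag1, 0.052 for Dtna and -0.042 for Sgca. Those of Dag1, Dtna and Sgca were much nearer 0 than with all libraries, and that of Sgcb was not.

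**Figure D2:**
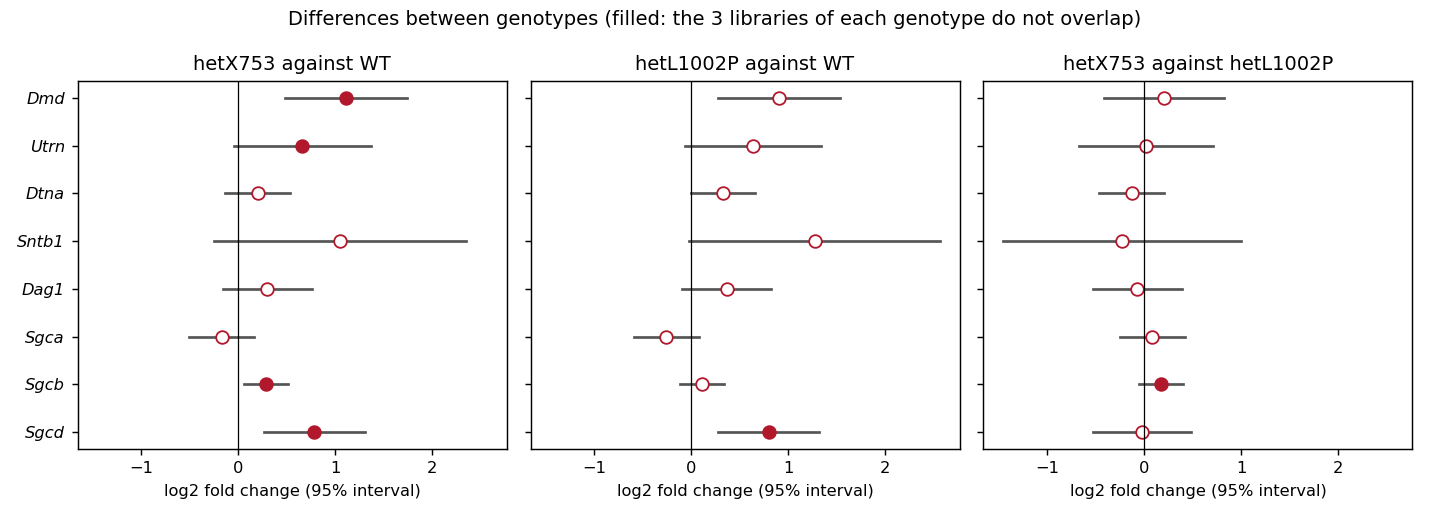
Log2 fold change of the 8 genes in each comparison, as points with 95% intervals from edgeR's quasi-likelihood fit of all 9 libraries; filled points mark genes whose libraries do not overlap between the 2 genotypes. A positive value means higher in the genotype named first, and 0 of the 8 passed at an adjusted p under 0.05 in any comparison.

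The same genes were compared between hetL1002P and WT, which share the WT libraries with the comparison above. Here too dystrophin, utrophin, delta-sarcoglycan and beta-1-syntrophin had positive fold changes and alpha-sarcoglycan a negative one, but none of the 8 passed the test of all 9 libraries. The 0 of 8 stand against 0 of 12989 genes, or 0%, while 1034 genes had an unadjusted p under 0.05 by edgeR's test, and DESeq2 called 5 and limma-voom 2 at an adjusted p under 0.05. Of the 8, 1 had all hetL1002P libraries above all WT libraries, against 5.67% of all genes, and 0 had all below, against 3.77%. The fold change was above 0 for 7 of 8, against 51.9% of all genes, and 2 of 8 had an unadjusted p under 0.05, against 7.96%. The median log2 fold change of the 8 was 0.50, against 0.013 over all genes.

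Dmd had 89.0, 89.2 and 41.1 CPM in the hetL1002P libraries, against 45.2, 45.6 and 26.2 CPM in the WT libraries. hetL1002P 1 and 2 were far above all WT libraries, whereas hetL1002P 3 lay among them. The log2 fold change was 0.91 (SE 0.28, adjusted p = 0.579, edgeR). Without WT 3 and hetL1002P 3, set aside for their place on the first principal component, it was 0.98 and passed (adjusted p = 0.00862, edgeR). That left 2 libraries in each of these groups. Dmd passed in 0 of the 9 fits that leave out 1 library, with adjusted p from 0.0915 to 0.999 (edgeR).

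Utrn had 22.1, 26.7 and 10.4 CPM in the hetL1002P libraries, against 13.6, 16.3 and 8.27 CPM in the WT libraries, and hetL1002P 3 again lay among the WT values. Sgcd had 8.42, 11.9 and 6.17 CPM in the hetL1002P libraries, against 5.21, 4.13 and 5.90 CPM in the WT libraries. It was the only one of the 8 whose groups did not overlap, with hetL1002P 3 just above WT 3, and its log2 fold change was 0.80 (SE 0.24, adjusted p = 0.579, edgeR). Sntb1 had 5.51, 6.08 and 0.807 CPM in the hetL1002P libraries, against 2.57, 1.29 and 1.16 CPM in the WT libraries. hetL1002P 3 was the lowest of all, with 17 counts, and the other hetL1002P libraries were the highest, so the log2 fold change of 1.27 had an SE of 0.58.

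Dag1 had 272, 272 and 193 CPM in the hetL1002P libraries, against 238, 200 and 132 CPM in the WT libraries. Dtna had 98.8, 94.5 and 79.9 CPM in the hetL1002P libraries, against 85.7, 75.3 and 56.7 CPM in the WT libraries. Both overlapped only through hetL1002P 3, with log2 fold changes of 0.37 (SE 0.21) for Dag1 and 0.33 (SE 0.15) for Dtna. Sgcb had 88.2, 96.2 and 104 CPM in the hetL1002P libraries, against 90.2, 86.0 and 90.9 CPM in the WT libraries. Sgca had 208, 196 and 257 CPM in the hetL1002P libraries, against 223, 260 and 308 CPM in the WT libraries. Both overlapped, with log2 fold changes of 0.11 (SE 0.10) for Sgcb and -0.26 (SE 0.15) for Sgca, and the adjusted p of the 8 genes lay between 0.579 and 0.673 (edgeR). Without WT 3 and hetL1002P 3 the log2 fold changes of hetL1002P against WT were 1.53 for Sntb1, 1.11 for Sgcd, 0.72 for Utrn, 0.31 for Dag1, 0.27 for Dtna, 0.068 for Sgcb and -0.25 for Sgca, and none of these 7 passed.

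Libraries of WT and hetL1002P that carry the same number deviated together. The highest r, 0.516, was that of WT 3 with hetL1002P 3, and hetL1002P 2 with WT 1 reached 0.198. This likeness was read from the same libraries, so it gives no independent ground for pairing them. The fit with the number as a block stands beside these values. In that fit 635 genes passed, and of the 8 genes Dmd rose (log2 0.86, adjusted p = 0.00366), Utrn rose (0.59, adjusted p = 0.033) and Dag1 rose (0.38, adjusted p = 0.0454, edgeR with the block). The ratio of hetL1002P to WT within same-numbered pairs was 1.97, 1.96 and 1.57 for Dmd, 1.63, 1.64 and 1.26 for Utrn and 1.14, 1.36 and 1.46 for Dag1, above 1 in 3 of 3 pairs each. Leaving out pair 1 or pair 2 left 0 of the 8 past the threshold, and leaving out pair 3 left 4, namely Dmd, Utrn, Sgcd and Sntb1. With the block and a correction for transcript length and GC content, 1 gene passed and none of the 8, with Dmd at 0.46 (adjusted p = 0.124, edgeR).

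Between the carriers, the fold changes of the complex genes were small relative to their errors. The log2 fold changes of hetX753 against hetL1002P ran from -0.22 for Sntb1 to 0.21 for Dmd, with adjusted p between 0.729 and 0.994 (edgeR). The 0 of 8 that passed stand against 15 of 12989 genes, or 0.115%, and 0 of 8 had an unadjusted p under 0.05, against 8.24%. The fold change was above 0 for 4 of 8, against 47.4% of all genes. The 95% interval was -0.41 to 0.83 for Dmd, -0.67 to 0.71 for Utrn and -0.53 to 0.49 for Sgcd, and it reached down to -1.45 for Sntb1, so differences up to those bounds were not excluded by these libraries. For Sgcb the interval was narrower, -0.049 to 0.40, and it was the only one of the 8 with all hetX753 libraries above all hetL1002P libraries, against 7.44% of all genes; 0 of 8 had all below, against 6.98%.

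Fold changes against WT followed transcript length across the whole table. In genes whose longest transcript exceeds 12000 bases the median log2 fold change was 0.38 in hetX753 and 0.41 in hetL1002P against WT, and in genes of up to 1000 bases it was -0.39 in hetX753 and -0.32 in hetL1002P. The 8 genes span this range, from Sgca at 1724 bases to Utrn at 12382 and Dmd at 14910 bases. By library, the median deviation of genes longer than 8000 bases from their own means was -0.19 on the log2 scale in hetL1002P 3 and -0.52 in WT 3, the 2 lowest, and lay between -0.13 and 0.31 in the other 7.

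With each library's trend on length and GC content removed, Dmd stood at a log2 fold change of 0.74 in hetX753 against WT (adjusted p = 0.0711, edgeR), Sgcd at 0.59, Utrn at 0.36 and Dag1 at 0.17. Sgca and Dtna changed sign, to 0.058 and -0.012. In hetL1002P against WT, Dmd stood at 0.48, Utrn at 0.26, Sgcd at 0.66 and Sgca at -0.047. The median of the 8 was 0.29 in hetX753 and 0.25 in hetL1002P against WT, beside 0.0088 in hetX753 and 0.021 in hetL1002P over all genes.

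**Figure D3:**
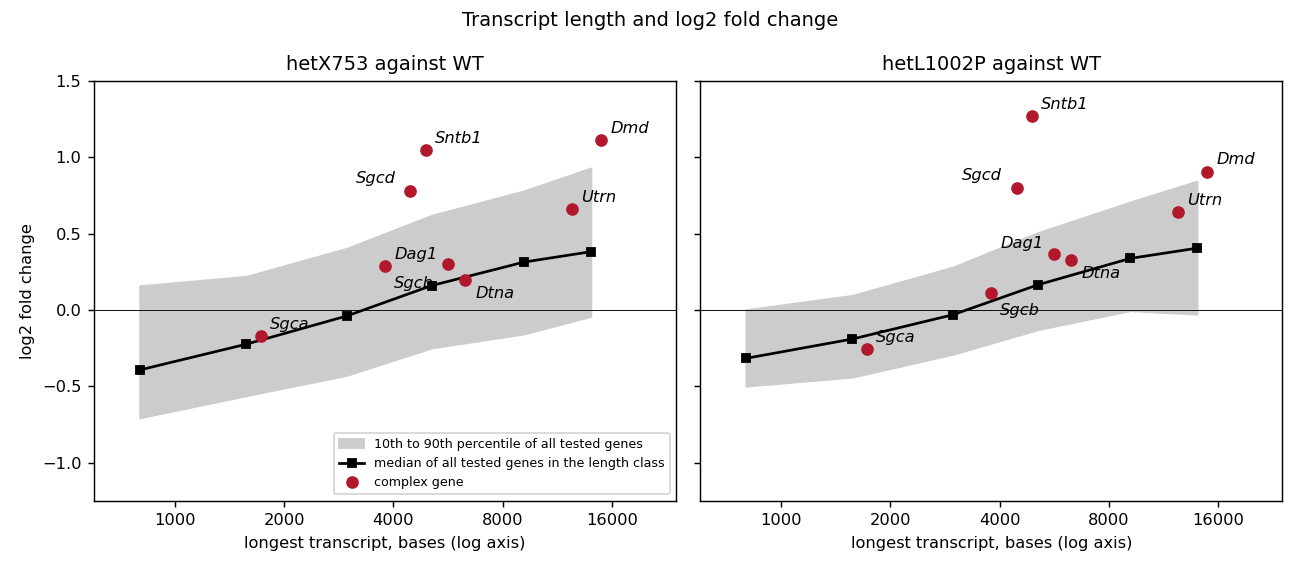
Log2 fold change against WT of the 8 genes (red), by the length of the longest transcript in bases on a log axis, for hetX753 and hetL1002P. The black line joins the medians of all tested genes in 6 length classes, and the grey band spans their 10th to 90th percentiles. Sgcd and Sntb1 lie above the band in both panels, and Dmd lies above its right-hand end. Utrn, Dag1, Dtna, Sgcb and Sgca lie within the band in both panels.

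**Figure D4:**
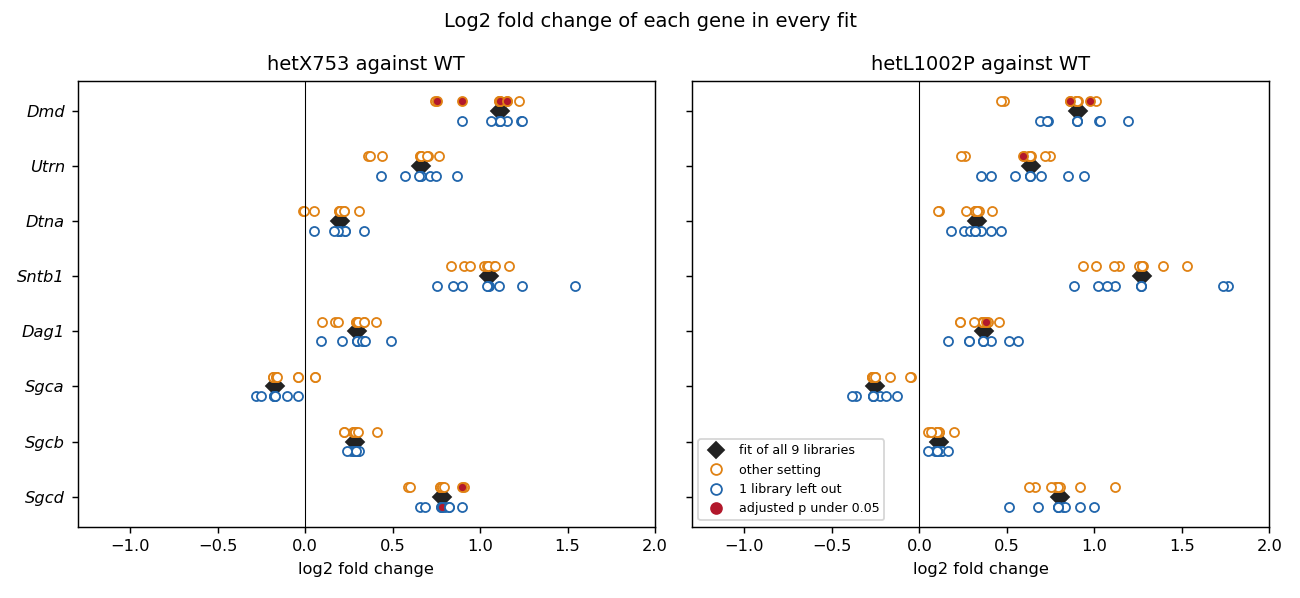
Log2 fold change of the 8 genes against WT under every processing alternative, for hetX753 and hetL1002P. Diamonds are the fit of all 9 libraries, orange circles other settings and blue circles the fits that leave out 1 library; filled red marks have an adjusted p under 0.05. Dmd stays between 0.74 and 1.24 in hetX753 and between 0.46 and 1.19 in hetL1002P.

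The remaining subunits of the complex had fold changes of both signs. Of 10 listed, 7 were tested, and 0 passed in either comparison with WT. In hetX753 4 of 7 were above 0 (median log2 0.115), and in hetL1002P 5 of 7 (median 0.23). Without WT 3 and hetL1002P 3, 3 of 7 were above 0 in hetX753 (median -0.050) and 5 of 7 in hetL1002P (median 0.15). With the length and GC trend removed, 4 of 7 were above 0 in hetX753 (median 0.0068) and 4 of 7 in hetL1002P (median 0.073). Nos1, the neuronal nitric oxide synthase held at the complex by its inner-side components, had 13.5, 12.4 and 27.0 CPM in the hetX753 libraries, 25.9, 35.3 and 6.26 CPM in the hetL1002P libraries and 10.9, 10.9 and 3.34 CPM in the WT libraries. All hetX753 libraries lay above WT and hetL1002P 3 lay among the WT values, with a log2 fold change of 1.06 (SE 0.60, adjusted p = 0.331, edgeR) in hetX753 against WT. In the blocked fit of hetL1002P against WT, Nos1 rose (log2 1.32, adjusted p = 0.00433, edgeR); it also passed without pair 1 or pair 3, but not without pair 2, nor with the length and GC trend removed in that fit (log2 1.04, adjusted p = 0.061, edgeR). Dtnb, beta-dystrobrevin, had a log2 fold change of -0.65 (SE 0.34, adjusted p = 0.292, edgeR) in hetX753, with overlapping libraries.

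Of 17 genes that glycosylate dystroglycan or supply the sugar donors for it, 7 were above 0 in hetX753 (median log2 -0.18) and 8 in hetL1002P (median -0.0051), none passing. With the length and GC trend removed, 7 of 17 were above 0 in hetX753 (median -0.054) and 10 of 17 in hetL1002P (median 0.033). Pomk, a kinase of the dystroglycan sugar chain, averaged 10.7 ± 0.186 CPM in hetX753, 14.6 ± 1.10 CPM in hetL1002P and 14.2 ± 1.85 CPM in WT (SD, n = 3 each). The hetX753 libraries were below all others, with a log2 fold change of -0.41 (SE 0.13, adjusted p = 0.146, edgeR) against WT. Large, a glycosyltransferase that extends the laminin-binding sugar, stood at 0.43 (SE 0.14, adjusted p = 0.161, edgeR) in hetX753 against WT.

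Of 9 matrix ligands, 7 were above 0 in hetX753 (median log2 0.17) and 9 in hetL1002P (median 0.245), and 0 passed. Without WT 3 and hetL1002P 3, 4 of 9 were above 0 in hetX753 (median -0.0026) and 9 of 9 in hetL1002P (median 0.30); with the length and GC trend removed, 4 of 9 (median -0.042) and 7 of 9 (median 0.039) were. The blocked fit of hetL1002P against WT, which called 635 genes among all tested, called 1 of 9. It was Hspg2, the heparan sulphate proteoglycan perlecan (log2 0.38, adjusted p = 0.0402, edgeR), named after its values were seen. Hspg2 did not pass once pair 1, 2 or 3 was left out, nor in the blocked fit with the trend removed. Lama5, a laminin alpha chain, stood at 0.57 (SE 0.19, adjusted p = 0.160, edgeR) and Lamb2, a laminin beta chain, at 0.39 (SE 0.14, adjusted p = 0.176, edgeR) in hetX753 against WT, both with all hetX753 libraries above all WT libraries. Of 12 linked membrane and cytoskeletal genes, 10 were above 0 in each carrier (median log2 0.21 in hetX753 and 0.20 in hetL1002P), and 0 passed. Without WT 3 and hetL1002P 3, 8 of 12 were above 0 in hetX753 (median 0.115) and 10 of 12 in hetL1002P (median 0.12). With the length and GC trend removed, 8 of 12 were above 0 in hetX753 (median 0.087) and 8 of 12 in hetL1002P (median 0.0685). Ank3, an ankyrin that organises membrane proteins, stood at 0.54 (SE 0.17, adjusted p = 0.146, edgeR), and Sync, an intermediate filament protein that binds dystrobrevin, at 0.52 (SE 0.16, adjusted p = 0.148, edgeR) in hetX753 against WT. The blocked fit of hetX753 against WT with the trend removed called 182 genes among all tested. Of the 12 it called 1, Sync (log2 0.66, adjusted p = 0.0465, edgeR). In the blocked fit of hetL1002P against WT, where 635 genes passed among all tested, 3 of 12 passed. These were Ank3 (log2 0.41, adjusted p = 0.0331), Sync (log2 0.55, adjusted p = 0.033, edgeR) and Ank2, another ankyrin, named after its values were seen (log2 0.65, adjusted p = 0.0232, edgeR). Ank3 and Sync did not pass without pair 1, 2 or 3, and Ank2 passed without pair 3 but not without pair 1 or 2. With the trend removed in the blocked fit of hetL1002P against WT, 0 of 12 passed (Ank3 0.087, adjusted p = 0.703, and Sync 0.68, adjusted p = 0.0765, edgeR).

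In whole muscle, fewer cells of a type and less RNA per cell cannot be told apart. The 6 smooth muscle markers, a cell type that also makes sarcoglycans, summed to 149, 293 and 174 CPM in the hetX753 libraries, 132 to 149 CPM in hetL1002P and 128 to 172 CPM in WT. The 8 fibroblast markers summed to 574 to 745 CPM in hetX753, 520 to 1255 CPM in hetL1002P and 815 to 969 CPM in WT. The 8 macrophage markers summed to 50.6 to 55.2 CPM in hetX753, 43.9 to 92.0 CPM in hetL1002P and 48.8 to 87.5 CPM in WT. The 6 adipocyte markers summed to 207, 391 and 207 CPM in the hetX753 libraries, so only hetX753 2 lay above the WT range of 196 to 284 CPM. In hetL1002P they summed to 152 to 172 CPM, so that all hetL1002P sums lay below all WT sums. In hetX753 against WT, 6 of 6 smooth muscle, 0 of 8 fibroblast, 0 of 8 macrophage and 5 of 6 adipocyte markers had fold changes above 0, and none passed. In hetL1002P against WT, 0 of 6 adipocyte markers were above 0 (median log2 -0.49), and none passed. No marker of these 4 lists was at 0 in any genotype, and the part of these cells in the values of the complex genes was not tested.

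Across the 9 libraries, levels of some of the 8 genes went together, which is a description of libraries that share genotype, depth and the length trend. The log2 CPM of Dmd and Utrn had r = 0.94 over 9 libraries, 0.85 over the 7 without WT 3 and hetL1002P 3, and 0.85 over 9 with the trend removed. Dag1 and Dtna had r = 0.97, 0.92 and 0.63 in the same order. Dag1 and Sgca went in opposite directions, with r = -0.96, -0.96 and -0.66. Dmd and Sgca had r = -0.78, -0.47 and -0.0285, so their opposite course was near 0 with the trend removed. The genes most like Dmd among those tested were Lyst (r = 0.991), C1galt1 (0.990) and Kdm3b (0.989). Utrn was most like Parva (0.989), Dag1 like Chd8 (0.992), Sgca like Nat9 (0.982), Sgcb like Inpp4a (0.955), Sgcd like Nek7 (0.964), Sntb1 like Vprbp (0.987) and Dtna like Zfp329 (0.986), each over 9 libraries.

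**Figure D5:**
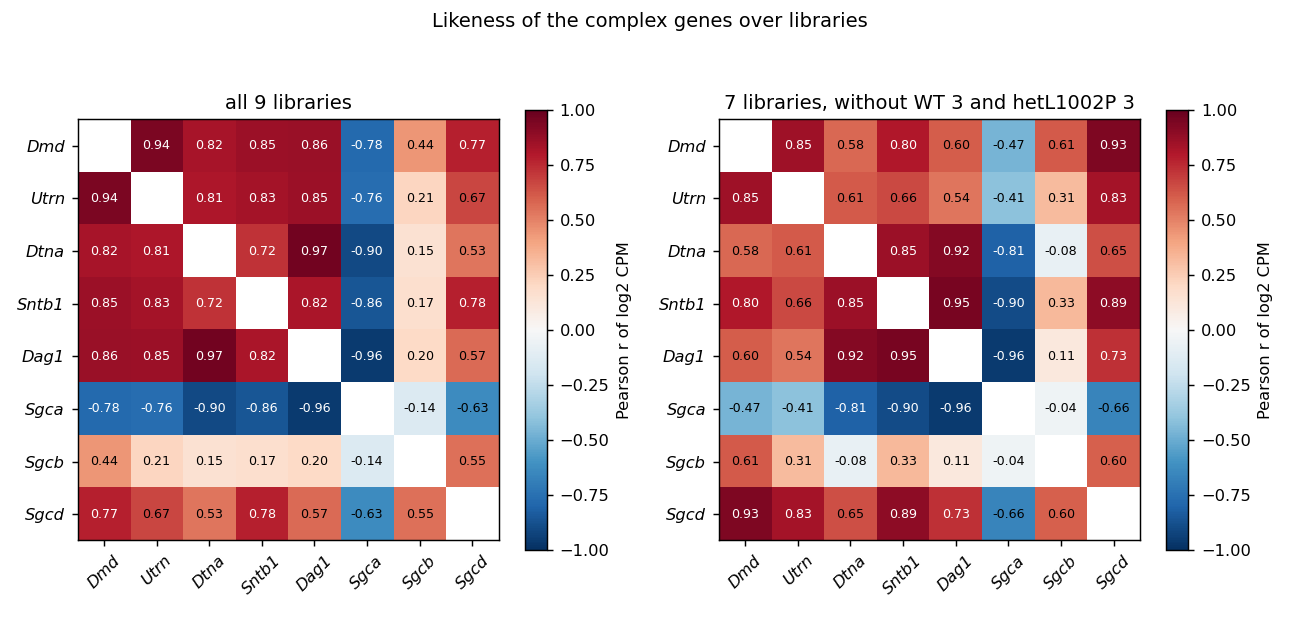
Pearson r of log2 CPM between the 8 genes over all 9 libraries and over the 7 without WT 3 and hetL1002P 3, on a colour scale from -1 (blue) to 1 (red), as a description without a test. Over 9 libraries Dmd and Utrn stand at 0.94, Dag1 and Dtna at 0.97 and Dag1 and Sgca at -0.96.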

How the data were processed

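The deposited table holds raw read counts, whole numbers with no normalization, for each symbol and library, per the file headers. Tools listed in the submitters' processing notes are featureCounts 1.4.6, Subread, Bowtie2 2.2.6 and TopHat2 2.0.14, with the build mm10; annotation and strand setting: not given in the sources used here. The library kit (TruSeq RNA, version 2, per the labels' protocols) does not mark strand, and Dtna shares 90 exonic bases with the antisense gene Gm47898. Genotypes came from the titles. Tests used edgeR 4.0.16 in R 4.3.3: filterByExpr, TMM scaling and a robust quasi-likelihood model of genotype alone over the 9 libraries, with Benjamini-Hochberg adjustment over 12989 genes and a threshold of 0.05. An SE is the fold change divided by the square root of F. CPM is relative to the TMM-scaled total. Likeness is Pearson r of log2 CPM with a prior count of 2. Length and GC content came from GENCODE M21 (98.47% of symbols matched; 99.5% of tested genes had both) and the trend was fitted with mgcv 1.9.3. DESeq2 1.42.0 and limma 3.58.1 were alternatives. The titles number the libraries without stating what a number stands for. Deviations of WT and hetL1002P libraries with the same number correlated (r = 0.285, 0.36 and 0.516, against -0.454 to 0.198 in the other 6 pairs), which met the bound of 0.1, and same-numbered pairs with hetX753 (-0.279 to 0.164) did not. All libraries of a genotype differed by more than sampling noise. The named genes are the 8, Bub1b, and from each pathway list those with the smallest p in hetX753 against WT. An item of the pathway lists is not reported here. The members and lists were chosen with earlier results of these data known. The test was also run on simulated counts.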

Additional observations from a re-analysis of the deposited data

How the results depend on the processing

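In hetX753 against WT, 66 genes and 0 of the 8 complex genes passed with all 9 libraries. The number of genes was 660 with DESeq2, 31 with library totals as scaling, 254 with the 2 genotypes alone, 106 with the replicate block, 100 with the length and GC trend removed, 182 with block and trend, and 340 without WT 3 and hetL1002P 3. Of the 8 genes, 2 passed with DESeq2 (Dmd and Sgcd), 1 with the 2 genotypes alone, 1 with the block, 1 with block and trend (Dmd in each) and 2 without WT 3 and hetL1002P 3 (Dmd and Sgcd). Leaving out 1 library gave 0 to 669 genes and 0 to 2 of the 8, with 0 genes without WT 1 and 669 genes and 2 of the 8 without hetL1002P 3; without WT 2, WT 3, hetL1002P 1, hetX753 1, hetX753 2 and hetX753 3 the genes were 9, 7, 13, 34, 17 and 3. In hetL1002P against WT, 0 genes passed, against 5 with DESeq2, 2 with limma-voom, 2 with no low-count filter, 635 with the block (3 of the 8), 1 with the trend removed, 1 with block and trend and 2 without WT 3 and hetL1002P 3 (1 of the 8, Dmd); leaving out 1 library gave 0 to 1, and leaving out pair 1, 2 or 3 in the block gave 30, 4 and 227 (4 of the 8 in the last). In hetX753 against hetL1002P, 15 genes passed, against 138 with DESeq2, 38 with no filter, 5 with the 2 genotypes alone, 2 with the block, 43 with the trend removed, 2 with block and trend, 95 without WT 3 and hetL1002P 3 and 0 to 19 with 1 library left out; 0 of the 8 passed in any.

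The split of higher and lower genes in hetX753 against WT was 43 and 23 with all libraries, 400 and 260 with DESeq2 and 22 and 9 with library totals, which moved the median of all genes to 0.12; in hetX753 against hetL1002P it was 8 and 7, and 28 and 67 without WT 3 and hetL1002P 3. Signs turned in these settings, and the cause was not tested. In hetX753 against WT, Sgca was at 0.058 with the trend removed and 0.059 with block and trend, and Dtna at -0.012 and -0.0044. In hetL1002P against WT, Lama5 was at -0.038 with the trend removed and -0.05 with block and trend, Dtnb at -0.23 without WT 3 and hetL1002P 3 and -0.23 in the block without pair 3, and Pomk at -0.045 in the block without pair 1. In hetX753 against hetL1002P, limma-voom gave Sgcd 0.0029 and Sntb1 0.086, the block gave Sgcd 0.0196, and without WT 3 and hetL1002P 3 Dmd was at -0.078, Utrn at -0.28, Bub1b at -0.35 and Ank3 at -0.022. With 1 library left out, ranges that crossed 0 in hetL1002P against WT were -0.064 to 0.36 for Dtnb and -0.044 to 0.14 for Pomk. In hetX753 against hetL1002P they were -0.076 to 0.38 for Dmd, -0.28 to 0.30 for Utrn, -0.22 to 0.0145 for Dag1, -0.22 to 0.26 for Sgcd, -0.70 to 0.16 for Sntb1, -0.35 to 0.35 for Bub1b, -0.80 to 0.12 for Nos1, -0.063 to 0.14 for Large, -0.0205 to 0.22 for Ank3 and -0.17 to 0.034 for Sync. The 8 genes kept the sign of their fold change against WT in every other setting. In hetL1002P against WT, libraries of the same number deviated together, although what a number stands for is not stated. There the block changed the call of Dmd, Utrn, Dag1, Nos1, Hspg2, Ank2, Ank3 and Sync and of no other gene named. In hetX753 against WT, same-numbered libraries did not all deviate together. Dmd passed there with the block (adjusted p = 0.0399, edgeR), but also in the 2 genotypes alone without it (adjusted p = 0.0291, edgeR). Counts were lowest for Bub1b (2 to 21 per library) and, of the 8 genes, for Sntb1 (17 to 169).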

Other observations

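Regenerating fibres re-express embryonic myosins and myogenic factors. Their 7 markers summed to 36.3 to 37.6 CPM in hetX753, 33.3 to 45.7 CPM in hetL1002P and 31.4 to 42.4 CPM in WT, and the ranges overlapped. Myod1, a myogenic factor, made up 14.02 to 26.04 CPM of each sum, highest in WT 1. In hetL1002P against WT, 5 of 6 tested markers were above 0 (median log2 0.42). Myh3, embryonic myosin, stood at 0.76 (SE 0.41) and Myh8, perinatal myosin, at 0.75 (SE 0.29), both with overlapping libraries. Ncam1, an adhesion molecule, stood at 0.50 (SE 0.17, adjusted p = 0.579 for each, edgeR). The myogenic factors were lower, with Pax7 at 0.34 (SE 0.43), Myog at 0.014 (SE 0.22) and Myod1 at -0.19 (SE 0.23). In hetX753 against WT, 4 of 6 were above 0 (median log2 0.20), and none passed in either comparison.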
